A study of Arabidopsis thaliana with 36 samples.

Results

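Class III peroxidases are secreted heme enzymes encoded by a large gene family in land plants. The 60 listed AtPRX loci of Arabidopsis thaliana were looked up among the probe sets of the Affymetrix ATH1 array, and a locus entered when at least 1 probe set was assigned to it and to no other gene. This gave 45 genes with 1 probe set each. The other 15 listed loci were skipped, 5 because they share a probe set with another gene and 10 because the probe table pairs none with them. Of the 45 genes, 38 passed the filter on low signals, which asked that 2 or more arrays reach a signal of 40. In the whole series 13356 genes had a probe set of their own, and 8035 of these passed the same filter.

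The arrays came from roots and shoots of Col-0 wild-type plants that served as the controls of a stress series. Each organ was sampled at 0, 0.25, 0.5, 1, 3, 4, 6, 12 and 24 h, with 2 arrays for each time and organ, so that 18 root arrays stand against 18 shoot arrays. Time 0 lay 3 h into a light period of 16 h, on day 16, in a growth room at 24 °C and 50% humidity on Murashige and Skoog medium. The plants were not stressed, but their boxes were taken out of the climate chamber, opened, and put back after the raft had been lifted, as was done for stressed plants. The labels give no separate cultures or plants behind the 2 replicates, so p-values measure the spread between these arrays, which may be technical. A fit over all arrays gave each probe set a shared spread, so p-values within an organ rest partly on arrays of the other. Roots and shoots are whole organs, and more cells of a type cannot be told apart from more RNA per cell.

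The enzymes use hydrogen peroxide to oxidise phenolic compounds in the cell wall, which cross-links lignin, suberin and extensins. They can also produce reactive oxygen species, which loosen walls or act as signals. In roots, members are known for building the lignin of the Casparian strip in the endodermis, for root hair growth and for the balance between division and elongation that the transcription factor UPBEAT1 (UPB1) sets. Several members act redundantly.

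The array values are MAS5 signals scaled by the authors to a common trimmed mean near 100 per array. Differences are log2 differences of (signal + 10), as roots minus shoots or a later time minus the first hour, with a standard error (SE), and adjusted p-values are from limma with Benjamini-Hochberg adjustment over all 15091 kept probe sets at a threshold of 0.05. Signals of different probe sets are on different scales and are not compared. Replicate arrays correlated at 0.971 to 0.992 over all kept probe sets. The organ labels held: summed over 6 photosynthesis genes, the signal lay between 153 and 306 in roots and between 20021 and 25962 in shoots. Summed over 3 root genes (PYK10, EXPA7 and EXPA18), it lay between 3201 and 4148 in roots and between 464 and 2027 in shoots. This sum mainly follows PYK10, with mean root signals of 3485 for PYK10, 48.3 for EXPA7 and 59.6 for EXPA18. The highest of the shoot sums over these root genes was replicate 1 at 0 h, an array that recurs below. On it, 87 probe sets of root-abundant transcripts, none of them a peroxidase, had a median of 5.39% of their mean root signal, against 2.41% on replicate 2 at 0 h, 2.52% and 3.38% at 4 h, and between 1.13 and 2.13% for the remaining 14.

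Most peroxidase transcripts were far higher in roots. Of the 38 kept members, 32 were higher and 6 lower in roots than in shoots, and all 38 differed between the organs. Among all kept probe sets 92.2% differed, 60.6% toward roots and 31.6% toward shoots, so the count alone is close to the background. The sizes were not. A difference of at least 2-fold toward roots was found for 27 members, against 20.3% of all kept probe sets, and toward shoots for 3 members, against 16.8%. The median difference was 2.77 on the log2 scale over the members and 0.33 over all kept probe sets. On 23 members every root array lay above every shoot array (29.1% of all kept probe sets), on 2 every shoot array lay above every root array (17.6%), and on 13 the organs overlapped. A total of 14 members (36.8%) reached a signal of 40 on all 18 root arrays and on no shoot array, against 5.64% of all kept probe sets. The filter keeps genes that are high in either organ, so the same comparison was made without it: of all 45 members, 36 were higher and 8 lower in roots, AT5G58400 passed in neither direction, and the background was 80.2% in either direction, 50% toward roots and 30.2% toward shoots.

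**Figure D1:**
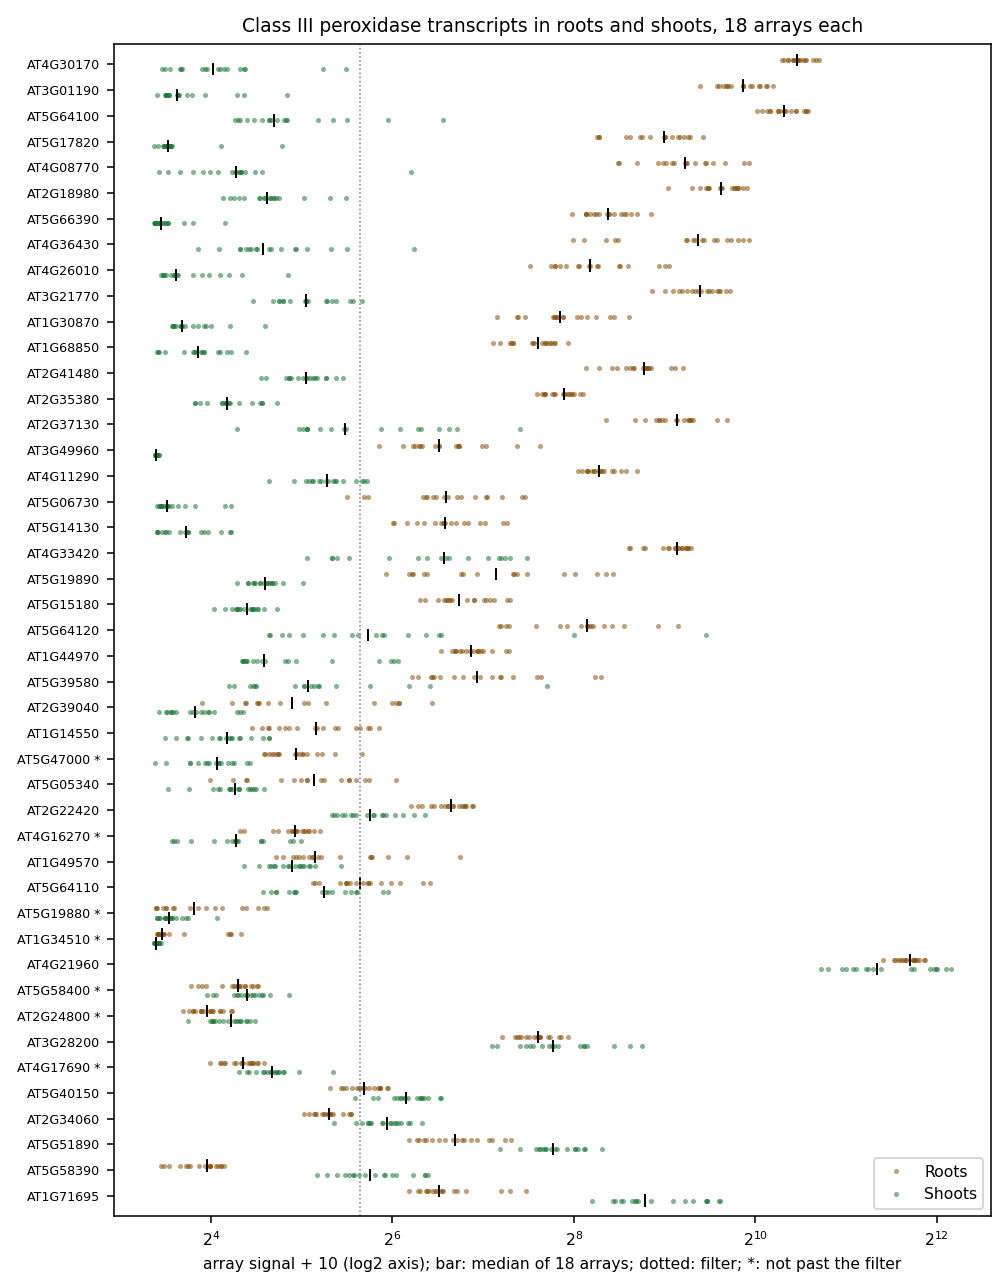
Signals of the 45 peroxidase genes on the 18 root arrays (brown) and 18 shoot arrays (green), as signal + 10 on a log2 axis, with 1 row for each gene, ordered by the root minus shoot difference; black bars are medians and the dotted line is the filter of 40. Root points lie to the right of all shoot points in most of the upper rows, and AT1G71695 and AT5G58390 in the lowest rows show the reverse; signals may be compared along a row but not between rows.

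The root arrays of AT4G30170 ran from 1245 through a median of 1401 to 1661, and its shoot arrays from 0.951 through 6.20 to 35.0, a difference of 6.39 (SE 0.10, adjusted p = 1.54e-25). AT3G01190 had a lowest, median and highest signal of 662, 921 and 1162 in roots, against 0.609, 2.37 and 18.5 in shoots (6.09, SE 0.08, adjusted p = 1.16e-26). Both genes were near the floor of the array in shoots, with the organs more than an order of magnitude apart. AT2G18980 read 515, 781 and 950 in roots, against 7.54, 14.6 and 35.0 in shoots, a difference of 4.97 (SE 0.08, adjusted p = 4.90e-25). AT4G08770 (Prx37), which is known to restrict growth when over-produced, read 349, 591 and 967 in roots, against 0.725, 9.31 and 64.0 in shoots (4.98, SE 0.12, adjusted p = 2.20e-21). For AT4G36430 the values were 245, 653 and 967 in roots, against 4.52, 13.8 and 65.3 in shoots (4.48, SE 0.15, adjusted p = 1.08e-18). None of these 3 overlapped between organs. The size of such differences depends on the constant added to low signals: without it AT4G30170 differed by 8.02 and with 50 by 4.66. Their order depends on it too: AT4G30170 had the largest difference of the kept members with 10 or 50 added, but without a constant AT3G01190 (8.44), AT5G66390 (8.37) and AT5G17820 (8.17) were above it. Averaged over the 9 times, every member kept its direction under each setting.

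The Casparian strip is a lignin barrier in the wall of endodermal cells, and 5 peroxidases are known to act there together. Of these, 3 had a probe set, and all 3 were higher in roots. AT5G66390 (PRX72) had 243, 322 and 453 as lowest, median and highest root signal, against 0.319, 0.879 and 7.73 in shoots (4.86, SE 0.06, adjusted p = 2.30e-27). AT4G11290 had 253, 300.3 and 404 in roots, against 14.8, 28.8 and 42.7 in shoots (3.02, SE 0.07). AT1G44970, also known from the tapetum of the anther, had 82.7, 107 and 146 in roots, against 10.2, 13.9 and 56.9 in shoots (1.98, SE 0.11). The organs did not overlap for any of the 3. GSO1, a receptor kinase that keeps this barrier closed, was the one other Casparian strip gene of 8 listed that had a probe set, and it was higher in roots by 2.14 (SE 0.06).

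Root hair peroxidases cross-link extensins in the growing hair wall. The array held 3 of 6 listed genes, and all 3 were higher in roots. AT5G64100 read 1026, 1265 and 1518 in roots, against 9.27, 15.8 and 84.2 in shoots (5.44, SE 0.10, adjusted p = 6.21e-24). AT4G26010 read 173, 279 and 519 in roots, against 0.911, 2.24 and 18.9 in shoots (4.45, SE 0.11). AT5G39580 was the exception to a clean separation, with 64.4, 112 and 306 in roots, against 8.28, 23.4 and 199 in shoots (1.83, SE 0.15), and its highest shoot value came from replicate 1 at 0 h. The root hair expansins EXPA7 and EXPA18, the measured 2 of 7 other root hair genes, were higher in roots by 1.34 (SE 0.07) and 1.22 (SE 0.07).

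Of 3 peroxidases that UPB1 represses in the root tip, AT5G17820 stood at 296, 502 and 679 in roots, against 0.353, 1.47 and 17.4 in shoots (5.28, SE 0.09, adjusted p = 2.03e-24). AT4G11290 belongs to this list as well. The third, AT4G16270, did not pass the filter, with 9.94 to 26.8 in roots and 1.86 to 21.8 in shoots. The oxidative burst peroxidases PRXCA and PRXCB had no probe set of their own.

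The peroxidases tied to stem and xylem lignin were less uniform. All 6 listed genes were measured and kept, 5 were higher in roots and 1 was lower. The largest difference was that of AT2G41480 (PRX25), with 271, 428 and 578 in roots, against 13.5, 23.1 and 33.9 in shoots (3.68, SE 0.07). AT4G33420, which acts in xylem vessels, read 379, 553 and 616 in roots, against 23.4, 84.7 and 169 in shoots (2.66, SE 0.07). AT5G64120 (PRX71) read 134, 273 and 559 in roots, against 14.9, 42.9 and 696 in shoots (2.12, SE 0.27). Its highest value of all 36 arrays was again the shoot replicate 1 at 0 h, and the difference without that array was 2.32 (SE 0.21). AT5G05340 (PRX52), needed for lignin between the fibres of the stem, read 5.81, 25.2 and 55.8 in roots, against 1.48, 9.17 and 14.0 in shoots (0.87, SE 0.10). AT2G22420 read 63.5, 89.8 and 109 in roots, against 30.2, 43.9 and 71.9 in shoots (0.87, SE 0.04), and these last 2 genes overlapped between organs. AT5G51890, the other vessel peroxidase, went the opposite way, with 62.7, 93.3 and 148 in roots, against 135, 208 and 308 in shoots (-1.11, SE 0.08, adjusted p = 2.25e-12).

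The members lower in roots were few and mostly moderate. AT1G71695 had 62.4, 81.1 and 167 in roots, against 284, 430 and 775 in shoots (-2.32, SE 0.05, adjusted p = 3.09e-22). AT5G58390 was near the floor in roots, with 0.926, 5.48 and 7.61, against 25.9, 43.9 and 74.2 in shoots (-1.93, SE 0.07, adjusted p = 1.84e-17). These were the only 2 kept members with every shoot array above every root array. AT2G34060 had 22.4, 29.2 and 36.7 in roots, against 30.9, 51.2 and 70.0 in shoots (-0.61, SE 0.05, adjusted p = 3.64e-11). AT5G40150 averaged 41.8 ± 6.54 in roots and 62.5 ± 12.0 in shoots (SD, n = 18 each), a difference of -0.48 (SE 0.06, adjusted p = 1.23e-07). AT3G28200 averaged 183 ± 26.0 in roots and 232 ± 82.8 in shoots (SD, n = 18 each), a difference of -0.27 (SE 0.06, adjusted p = 3.40e-04). Its direction depended on the time, with means of 195 in roots and 380 in shoots at 0.5 h, and 191 and 130 at 12 h. These last 3 genes overlapped between the organs. AT4G21960 (PRXR1), a peroxidase with broad expression, read 2706, 3326 and 3745 in roots, against 1687, 2587 and 4576 in shoots. Its direction also depended on the time, with means of 2969 in roots and 1865 in shoots at 0 h, and 3489 and 4239 at 12 h. Its difference of 0.21 (SE 0.04) toward roots was smaller than the all-gene median of 0.33, and it was 0.89 after quantile normalization and 0.01 after centring each array on its median.

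A further 12 kept members, which are on none of the role lists, were all higher in roots. In 9 of them the organs did not overlap. AT3G21770 had 456, 659 and 836 as lowest, median and highest signal in roots, against 12.1, 23.0 and 40.6 in shoots. AT1G30870 differed by 4.10 (SE 0.10) and AT1G68850 by 3.70 (SE 0.08). The other 6, AT2G35380, AT2G37130, AT3G49960, AT5G06730, AT5G14130 and AT5G15180, differed by 2.41 to 3.63. AT3G49960 was at the floor on every shoot array, with 47.8, 81.3 and 188 in roots, against 0.417, 0.513 and 0.725 in shoots. AT2G37130 varied more among shoots, with 317, 552 and 816 in roots, against 9.44, 34.6 and 159 in shoots. The organs overlapped for AT1G14550 (1.01, SE 0.10), AT2G39040 (1.26, SE 0.19) and AT1G49570 (0.49, SE 0.13), which reached the filter on at most 6 root arrays and on no shoot array.

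Tandem copies were set side by side, since near-identical copies can share hybridisation, which was not tested. The listed loci hold 8 pairs of adjacent genes, and 4 of these had both members measured, all on chromosome 5. In the first, AT5G19890 read 50.8, 131 and 336 in roots, against 9.43, 14.1 and 22.3 in shoots (2.54, SE 0.11), while AT5G19880 stayed below the filter with at most 14.5 in roots and 6.70 in shoots. In the second, AT5G58390 was lower in roots as given above, and its neighbour AT5G58400 did not pass the filter, with 3.68 to 13.0 in roots and 5.52 to 19.1 in shoots. The other two pairs form a run of 3 genes, AT5G64100, AT5G64110 and AT5G64120, with differences of 5.44, 0.48 (SE 0.09) and 2.12. AT5G64110 overlapped between organs, with 24.9, 39.8 and 75.0 in roots, against 13.8, 28.0 and 51.8 in shoots.

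Members left out by the filter were AT1G34510, AT2G24800, AT4G16270, AT4G17690, AT5G19880, AT5G47000 and AT5G58400. Their highest signals were 40.7 in roots (AT5G47000) and 30.6 in shoots (AT4G17690). AT5G47000 was the one whose organs did not overlap, with 13.9, 20.5 and 40.7 in roots, against 0.445, 6.74 and 11.5 in shoots (0.92, SE 0.08, limma without the filter, adjusted p = 1.17e-10). Among enzymes that supply or share the peroxidases' substrates, the array named few. All 3 measured NADPH oxidases of 10 listed, which release the superoxide that becomes hydrogen peroxide, were higher in roots: AT4G25090 by 3.69 (SE 0.05), AT4G11230 by 2.03 (SE 0.06) and AT1G19230 by 1.91 (SE 0.05). Of 17 listed genes of monolignol synthesis, CCR2 was higher in roots by 2.66 (SE 0.11) and HCT differed by -0.53 (SE 0.04), and the other 15 were not named by the probe table. The 1 measured laccase of 17 listed, an enzyme class that also polymerises lignin, did not pass the filter.

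Over the 9 times, 8 of 38 members changed in roots (21.1%), against 17.6% of all kept probe sets, and 18 changed in shoots (47.4%), against 62.6%. Of the members called, 7 in roots and 10 in shoots also had a log2 range of at least 1 between the highest and lowest time, against 5.49% and 21% of all kept probe sets. A further 10 members in roots and 2 in shoots had such a range without being called. The time course differed between the organs for 18 members (47.4%), against 40.9% of all kept probe sets. Among the 18 that changed in shoots, 6 were highest at 0 h and 4 at 4 h, the others at 0.25, 0.5, 6 or 24 h. At 12 h 7 were lowest. The root-abundant probe sets had medians of 5.39% and 2.41% of their mean root signal on the 0 h shoot arrays. These medians were 2.52% and 3.38% at 4 h, and 1.14% and 1.39% at 12 h. The part of root material in these peaks and lows was not tested. AT2G18980, AT2G35380, AT3G01190, AT4G30170 and AT5G14130, all among the 18, reached the filter on no shoot array. Of those highest at 0 h, AT2G18980, AT4G08770 and AT5G39580 lost their call without the 0 h arrays. Among the 8 that changed in roots, 4 were highest at 3 h and 5 lowest at 1 h. Peak and trough times were counted for members only, so these counts have no background and show no timing particular to the family.

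The clearest course in shoots was that of AT4G21960. Its shoot arrays read 2044 and 1687 at 0 h, 2205 and 2381 at 0.25 h, 1777 and 2154 at 0.5 h, and 1978 and 2512 at 1 h. Signals of 3890 and 3362 followed at 3 h, 3446 and 4010 at 4 h, 4576 and 4109 at 6 h, 4408 and 4069 at 12 h, and 2662 and 2407 at 24 h. All 8 arrays from 3 to 12 h lay above all 10 other shoot arrays. The mean was 4342 ± 330 at 6 h and 1865 ± 253 at 0 h (SD, n = 2 each), and the change over time had an adjusted p of 1.24e-08 in shoots. In roots the 18 arrays stayed between 2706 and 3745 and the same test gave an adjusted p of 0.34. The courses of the organs differed (adjusted p = 4.50e-05 for the interaction).

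AT1G71695 rose in shoots in the same hours. Its shoot arrays read 284 and 335 at 0 h, 408 and 390 at 0.25 h, 358 and 362 at 0.5 h, 339 and 452 at 1 h, 587 and 537 at 3 h, 628 and 691 at 4 h, 775 and 697 at 6 h, 696 and 766 at 12 h, and 401 and 397 at 24 h. The 8 arrays from 3 to 12 h were again above the other 10 (adjusted p = 5.46e-07). In roots its values were 68.7 and 62.4 at 0 h, 136 and 147 at 3 h, 102 and 167 at 4 h, and 67.7 to 94.7 at the other times, so its root maximum fell at 3 and 4 h and had passed by 6 h (adjusted p = 5.05e-04). The organ courses differed (adjusted p = 4.60e-04).

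AT4G33420 did the reverse. In shoots it read 137 and 148 at 0 h, 141 and 123 at 0.25 h, 169 and 134 at 0.5 h, 104 and 88.2 at 1 h, 35.8 and 86.6 at 3 h, 73.1 and 52.3 at 4 h, 23.4 and 30.3 at 6 h, 30.2 and 32.0 at 12 h, and 67.6 and 82.8 at 24 h. All later arrays lay below all 8 arrays of the first hour (adjusted p = 5.16e-08). In roots the lowest arrays were those at 12 h, with 379 and 382, against 494 and 602 at 0 h, and the root change over time was not called (adjusted p = 0.34). AT3G28200 also fell in shoots, with a minimum of 127 and 132 at 12 h and a maximum of 422 and 338 at 0.5 h (adjusted p = 1.26e-05). AT2G37130 was lowest in shoots at 24 h, with 21.3 and 9.44, and highest at 4 h, with 159 and 81.4 (adjusted p = 1.02e-04).

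**Figure D2:**
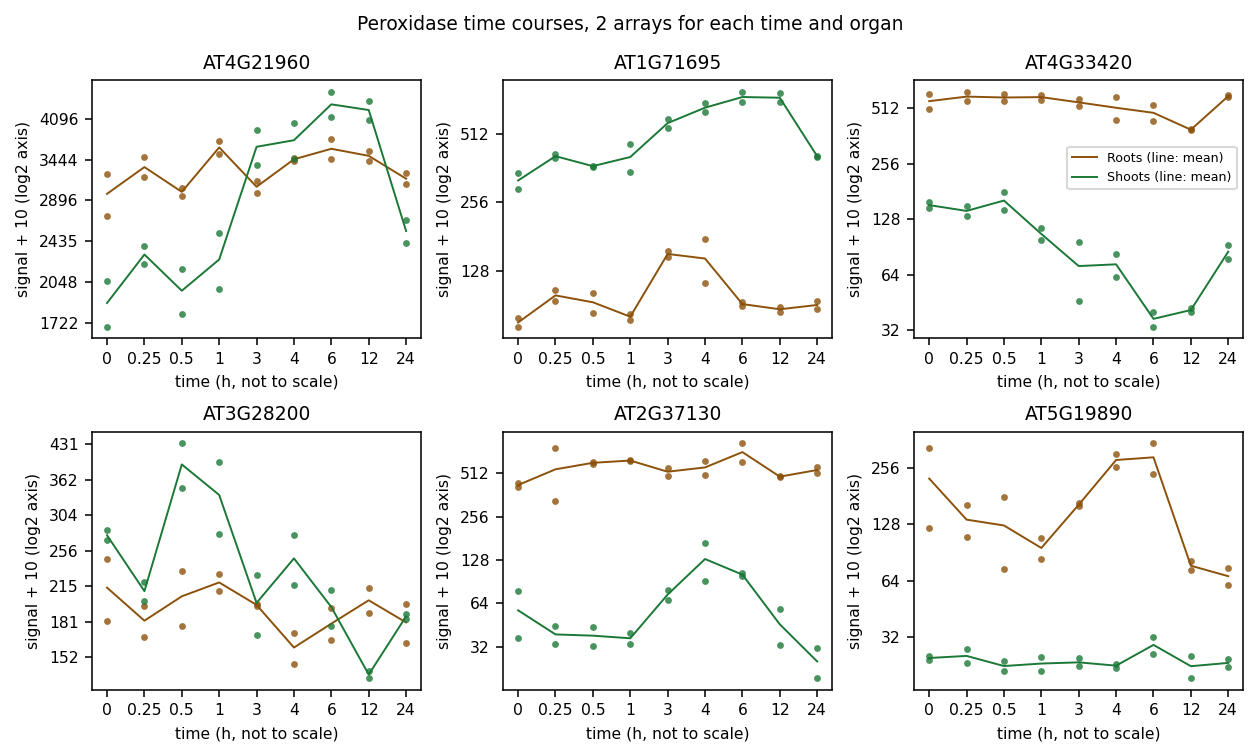
Signal + 10 (log2 axes) at the 9 times for 6 peroxidase genes, with roots in brown and shoots in green; points are the 2 arrays of each time and lines join their means, and times are evenly spaced, not to scale. In shoots AT4G21960 and AT1G71695 are high from 3 to 12 h and AT4G33420 is low from 6 to 12 h, while AT5G19890 moves in roots, where it is highest at 4 and 6 h, and stays low in shoots.

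Later times were set against the 8 arrays of the first hour (0, 0.25, 0.5 and 1 h). The 3 later windows share this baseline and are not independent of each other. At 3 to 6 h, 7 members changed in shoots (40.7% of all kept probe sets), 3 upward (21.3%) and 4 downward (19.5%). At 12 h, an hour before the end of the light period, 7 changed (39.7%), 2 upward (20.3%) and 5 downward (19.4%). At 24 h, 7 changed (20.1%), 2 upward (9.81%) and 5 downward (10.3%). In each window the share of members called, 18.4%, was below that of all kept probe sets. Since only 16 of the 38 members reached 40 on at least 2 shoot arrays, these shares do not show a family steadier in shoots.

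For AT4G21960 the differences in shoots were 0.90 (SE 0.07) at 3 to 6 h, 1.03 (SE 0.10) at 12 h and 0.29 (SE 0.10) at 24 h, with lowest, median and highest signals of 3362, 3950 and 4576 at 3 to 6 h, against 1687, 2099 and 2512 in the first hour. The 24 h value had an adjusted p of 0.048, and lost the threshold in 32 of 49 alternatives. AT1G71695 differed by 0.82 (SE 0.08) and 0.99 (SE 0.12) at the first 2 windows. At 3 to 6 h it read 537, 660 and 775, against 284, 360 and 452 in the first hour. AT2G37130 was called at 3 to 6 h alone, at 1.25 (SE 0.19), with 58.0, 85.0 and 159, against 22.3, 28.5 and 68.0.

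Downward in shoots, AT4G33420 differed by -1.30 (SE 0.12), -1.75 (SE 0.18) and -0.70 (SE 0.18) in the 3 windows. AT3G28200 differed by -0.48 (SE 0.10), -1.07 (SE 0.15) and -0.66 (SE 0.15). Both genes were lower late in the light period and were still lower on the next morning than on the first. AT5G39580 differed by -0.64 (SE 0.24), -1.36 (SE 0.36) and -1.34 (SE 0.36), but its first-hour values ran from 12.5 to 199 and its adjusted p at 3 to 6 h was 0.040, rising to 0.12 without shoot replicate 1 at 0 h. The lignin peroxidase AT2G22420 differed by -0.31 (SE 0.07) at 3 to 6 h and by 0.53 (SE 0.11) at 24 h, where both arrays, 65.2 and 71.9, lay above the first-hour range of 34.4 to 59.4. AT2G34060 (-0.45, SE 0.12) and AT5G64110 (-0.63, SE 0.21) were lower at 12 h, and AT4G11290 (-0.48, SE 0.16) and AT5G58390 (-0.57, SE 0.18) at 24 h.

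In roots few members moved in these windows. At 3 to 6 h 3 were called (8.09% of all kept probe sets), 2 upward (4.15%) and 1 downward (3.94%). AT5G19890 rose by 0.85 (SE 0.19), with 150, 238 and 336 at 3 to 6 h, against 64.1, 106 and 317 in the first hour. Its 0 h arrays read 112 and 317, and with those 2 as the only baseline the adjusted p was 0.64. AT1G71695 rose by 0.53 (SE 0.08), with 79.2, 119 and 167, against 62.4, 73.0 and 94.7. AT2G41480 fell by 0.43 (SE 0.11), with 271, 351 and 392, against 345, 448 and 578. At 12 h 1 member was called, against 5.93% of all kept probe sets, of which 2.93% were upward and 3% downward. It fell: AT5G14130 had 54.9 and 54.3, below all 8 first-hour arrays at 61.3 to 144 (-0.71, SE 0.14), a call lost when either 12 h array was left out (adjusted p = 0.069 each). At 24 h limma called 0 members in roots, against 0.517% of all kept probe sets (0.318% upward and 0.199% downward), and 3 had an unadjusted p under 0.05.

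Over all 9 times in roots, AT5G19890 had the widest range, 2.09, with 57.8 ± 9.88 at 24 h and 281 ± 76.7 at 6 h (SD, n = 2 each; adjusted p = 5.97e-04). AT5G06730 read 163 and 167 at 3 h, against 41.3 and 43.2 at 1 h (adjusted p = 9.64e-04). AT5G14130 had its minimum at 12 h, given above, and its maximum at 0.25 h, with 140 and 144 (adjusted p = 0.0014). These last 2 calls were lost when no constant was added to the signals (adjusted p = 0.25 and 0.74). Both genes were above the filter on 17 or 18 root arrays. Their shoot arrays, which share the fit, read 0.587 to 8.67 for AT5G06730 and 0.539 to 8.60 for AT5G14130. The part of these low values in the lost calls was not tested. AT5G05340 (PRX52) was highest at 4 h, with 38.3 and 41.9, and lowest at 1 h, with 8.98 and 5.81 (adjusted p = 0.011). AT1G14550 was highest at 3 h, with 47.9 and 43.2, and lowest at 1 h, with 18.1 and 11.8 (adjusted p = 0.035), a call lost in 10 of 47 alternatives. AT2G22420 and AT5G64110 also changed, both lowest at 1 h. Over time in roots, 0 of the 3 kept Casparian strip, 0 of 3 root hair and 0 of 2 UPB1 peroxidases were called by limma. Of 6 lignin peroxidases 2 were called, and the share over all kept probe sets was 17.6%. In shoots the counts were 1, 2, 0 and 2, against a share of 62.6%. AT4G11290 is counted in 2 of these lists, and the lists are too short to be set against each other.

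Within the first hour, 4 members changed in roots (8.6% of all kept probe sets): AT5G14130 (adjusted p = 0.0082), AT5G06730 (0.017), AT5G05340 (0.028) and AT5G51890 (0.031). The lignin peroxidase AT5G51890 read 142 and 148 at 1 h, against 62.7 and 68.6 at 0 h. Leaving out either 1 h root array reduced the 4 to 1. In shoots 7 changed (25.6% of all kept probe sets). The smallest p was that of AT1G44970, with 47.9 and 53.4 at 0.25 h, against 11.0 and 10.2 at 0 h, while the arrays at 0.5 and 1 h read 10.4 to 18.8 (adjusted p = 0.0030). It was high on single later arrays as well, with 56.9 and 30.2 at 3 h and 10.4 and 54.7 at 24 h. AT5G39580 and AT5G64100 were called through their 0 h values. Without shoot replicate 1 at 0 h the 7 became 2, AT1G44970 and AT3G28200, and without replicate 2 they became 14.

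Shoot replicate 1 at 0 h carried the highest shoot signal of many root-abundant peroxidases. It was the highest of the 18 shoot arrays for 14 of the 38 kept members (36.8%), against 8.05% of all kept probe sets. Among members at least 2-fold higher in roots the count was 13 of 27 (48.1%), against 22.0% of all kept probe sets with such a difference. AT5G64120 read 696 on this array and 50.2 on replicate 2, against 14.9 to 245 on the other 16 shoot arrays, and the highest root array was at 559. AT5G39580 read 199 and 62.5, and its root arrays at the same time read 92.2 and 64.4. AT5G64100 read 84.2 and 26.2, and AT4G08770 64.0 and 9.40. AT4G30170 read 35.0 and 9.98. Root-abundant transcripts as a group were also highest on this array, at the 5.39% given above. On it AT5G64120 and AT5G39580 stood above their mean root signals of 272 and 132. The part of root material in these values was not tested. Without this array 17 of the 18 calls over time in shoots were kept, AT2G18980 was lost and AT4G11290 gained. Without both 0 h groups, 14 of the 18 were kept, and AT2G18980, AT3G01190, AT4G08770 and AT5G39580 were lost. AT5G64120 itself did not pass over time in shoots (adjusted p = 0.054, and 0.10 without this array).

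**Figure D3:**
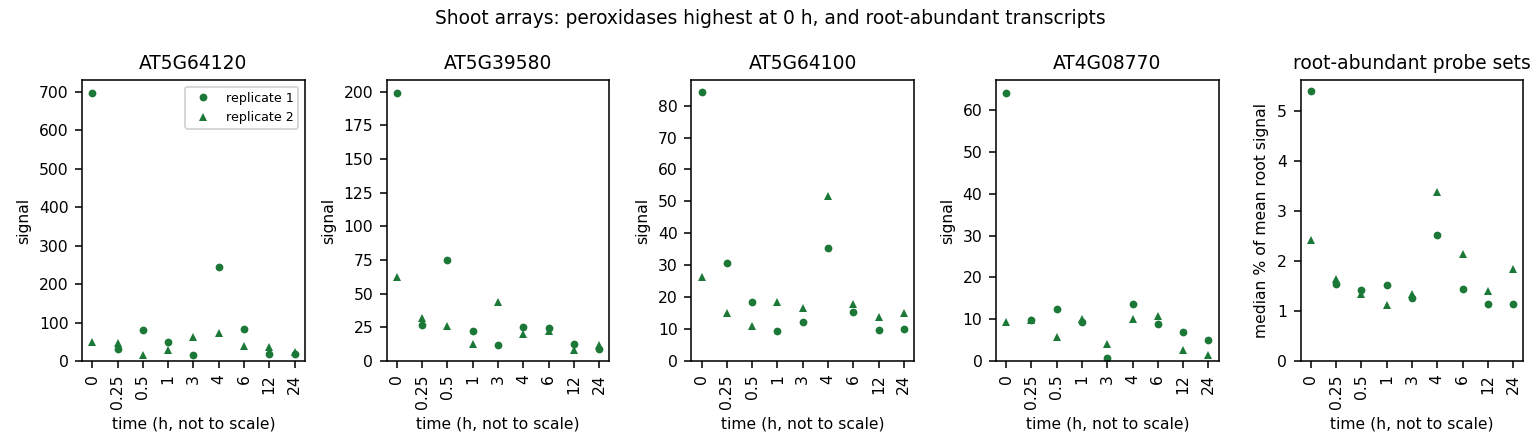
Signals of 4 peroxidases on the 18 shoot arrays by time, and in the right panel the median signal of 87 root-abundant non-peroxidase probe sets as a percentage of their mean root signal; circles are replicate 1 and triangles replicate 2, on linear axes from 0 with times not to scale. Replicate 1 at 0 h is the highest point in every panel, at 696 for AT5G64120 and 5.39% for the root-abundant probe sets.

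On the root arrays members split into opposed sets, a pattern noticed in these values and given as a description without a test. The root hair peroxidase AT4G26010 was set against the other 37 kept members over the 18 root arrays, which share an organ and fall in 9 pairs of a time. At a Pearson correlation of at least 0.70 in size, 5 members went with it (13.5%, against 2.73% of the 15090 other kept probe sets) and 6 against it (16.2%, against 2.19%). With it went AT1G30870 (0.89), AT5G17820 (0.81), AT2G39040 (0.81), AT3G49960 (0.76) and AT5G15180 (0.71), and the next below was AT4G30170 (0.63). Against it went AT4G08770 (-0.86), AT4G36430 (-0.86), AT5G05340 (-0.85), AT5G06730 (-0.80), AT2G22420 (-0.80) and AT3G21770 (-0.74), and the next was AT1G68850 (-0.70, just under the limit). The other 2 kept root hair peroxidases were in neither set: AT5G64100 correlated with AT4G26010 at 0.41 over the 18 root arrays and at 0.26 over the deviations from the group means, and AT5G39580 at -0.53 and -0.69. Correlations between members of different sets ran from -0.91 to -0.49. Within the AT4G26010 set, that gene included, they ran from 0.43 to 0.89, and within the opposed set from 0.61 to 0.90. Both sets were picked by their correlation with the same gene.

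The split appeared between replicates of a time as well as between times. At 0.5 h AT4G26010 read 221 on replicate 1 and 481 on replicate 2, and AT4G36430 read 887 and 318. The difference between the set means (AT4G26010 set minus opposed set, log2) was higher on replicate 2 than on replicate 1 by 1.05 for the pair at 0 h, 1.61 for that at 0.25 h, 1.74 for that at 0.5 h and 1.13 for that at 6 h. At 1, 3, 4, 12 and 24 h the replicates lay within 0.31 of each other. At 1 h it was 0.80 and 0.82, and at 3 h -1.54 and -1.37, so both arrays stood near the high end at 1 h and near the low end at 3 h. The members called over time in roots with a minimum at 1 h include AT2G22420, AT5G05340 and AT5G06730 of the opposed set. Over the deviations from the group means, 6 members went with AT4G26010 and 7 against it. Over the 9 group means, 3 went with it and 7 against.

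EXPA18, an expansin of root hair cells that is no peroxidase, followed the same difference over the 18 root arrays, with a Pearson r of 0.87 and a Spearman rho of 0.82. EXPA7 gave 0.82 and 0.84. Without the 2 arrays farthest from the median of the set difference, r was 0.85 for EXPA18 and 0.81 for EXPA7, and over the 9 replicate differences, 1 for each time, it was 0.86 and 0.75. EXPA18 ran from 42.3 to 89.9 and EXPA7 from 29.4 to 74.0 on these arrays. PYK10, an abundant glucosidase of roots, gave an r of 0.31 and a rho of 0.25, the summed photosynthesis genes 0.37 and 0.41, and the 25S rRNA control -0.21 and -0.22. Without the 2 farthest arrays r was -0.11 for PYK10, 0.26 for the photosynthesis genes and -0.45 for the 25S rRNA control. These 5 relations are descriptions, since the sets were picked on the same arrays, and what sets these root arrays apart was not tested.

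**Figure D4:**
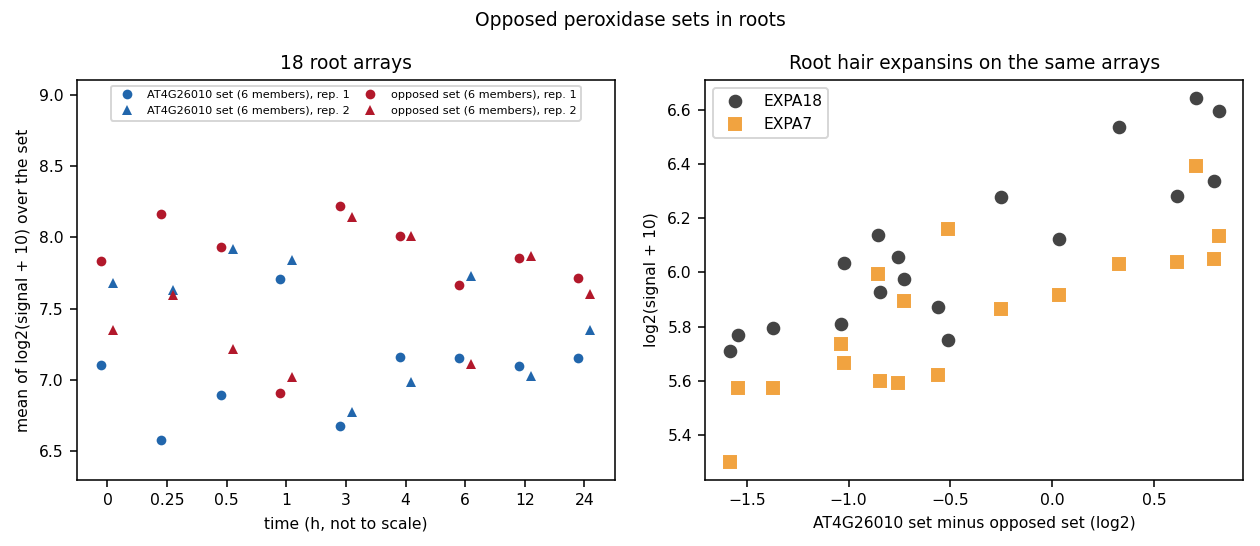
Left, mean log2(signal + 10) over AT4G26010 and the 5 members that go with it (blue) and over the 6 opposed members (red) on the 18 root arrays by time, with circles for replicate 1 and triangles for replicate 2. Right, log2(signal + 10) of EXPA18 and EXPA7 against the difference between the set means on the same arrays; the replicates part at 0, 0.25, 0.5 and 6 h, and both expansins are higher where the difference is larger.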

How the data were processed

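Total RNA from roots and shoots was hybridised to ATH1 arrays, 2 for each of 18 groups. The deposited values are intensities for 22810 probe sets, made by the authors with MAS5 per the submitters' processing notes. Trimmed by 2% at either end, the array means were 100.007 to 100.01, so the values were not rescaled. The number of arrays limits the precision. The 64 control probe sets were set aside. The probe table pairs 13513 probe sets with 1 gene, 503 with several and 8794 with none, and 13436 were matched to a TAIR10.1 gene table, used for names and neighbours only. The main analysis took log2(signal + 10), the 15091 probe sets past the filter and 18 group means over all 36 arrays in limma (version 3.58.1, under R 4.3.3; 18 residual degrees of freedom). F-tests covered the 9 times, the first hour and the interaction, and contrasts covered organs and 3 later windows. The fit was run on simulated data with independent normal noise and the same spread per probe set in both organs. That run checks the code and cannot speak to unequal spread between organs or to odd arrays.

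Named members were the 8 and 6 largest organ differences toward roots and shoots, the 6 smallest p in each time course (range at least 1) and the interaction, the 3 largest each way in each window, the 3 smallest p in each first hour, and all members of role lists and neighbouring pairs. AT4G21960 among the organ differences, and the opposed sets and the 0 h array, were chosen after their values were seen. Members and lists were chosen with earlier results of these data known. The labels do not say whether replicate numbers pair arrays. Same-numbered root and shoot arrays of a time had deviations correlated at -0.11 to 0.05. Same-numbered arrays at 2 times had -0.22 to 0.47 in roots and -0.42 to 0.39 in shoots. In the opposed root sets, replicate 2 was above replicate 1 by 1.05 to 1.74 at 0, 0.25, 0.5 and 6 h. A structure shared by same-numbered root arrays of several times therefore cannot be told apart from unrelated differences. Alternatives covered the constant, filter, normalization, prior, replicate block, 25S rRNA signal, baseline, single organs and each array left out.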

Additional observations from a re-analysis of the deposited data

Results flagged for a closer look

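For 18 members the time course in roots differed from that in shoots by limma's interaction F-test over the 9 times, with Benjamini-Hochberg adjustment over all kept probe sets. The smallest adjusted p was 4.5e-05 for AT4G21960, followed by 0.00043 for AT4G33420 and 0.00046 for AT1G71695, the genes with large shoot courses. AT5G39580 and AT3G28200 had 0.0046 each, AT5G06730 had 0.0077, AT5G64100 had 0.0079 and AT2G34060 had 0.0088. AT5G14130 and AT2G37130 had 0.012 each, AT5G19890 had 0.013, AT5G05340 had 0.014, AT2G22420 had 0.019 and AT4G08770 had 0.024. AT1G44970 had 0.035, AT5G58390 had 0.045, AT2G18980 had 0.046 and AT5G66390 had 0.049. Without shoot replicate 1 at 0 h, 17 of the 18 were kept, AT5G58390 was lost, and AT3G01190 and AT5G17820 were gained. Without replicate 2 of that group all 18 were kept and 7 more were called.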

How the results depend on the processing

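The direction of every organ difference held under all alternatives. The count of 38 was 37 after median centring, 30 of 30 under the stricter filter and 44 of 45 without one, and no array left out changed it. Centring each array on its median moved the all-gene median of roots minus shoots to 0.13 and quantile normalization to 0.21. Counts of members called over time are less firm, and the cause was not tested. Without a constant the counts were 2 over time in roots (8 in the analysis reported), 1 (of 4) and 12 (of 7) in the first hour in roots and shoots, 11 (of 7) in shoots at 3 to 6 h, and 0 (of 1) and 12 (of 7) in roots and shoots at 12 h. With a constant of 50 they were 18 over time in roots, 7 in the first hour in roots, 9 (of 3) in roots at 3 to 6 h and 3 in roots at 12 h. The stricter filter left 5 over time in roots. With the 25S rRNA signal as a covariate 2 were called in the first hour in roots, 4 in shoots at 3 to 6 h and 2 in roots at 12 h, where quantile normalization over all arrays, within an organ, and roots alone also gave 2. Roots alone gave 2 in the first hour, and shoots alone gave 4 in the first hour, 12 over time and 4 at 24 h. With 0 h as the only baseline the counts were 1 in roots and 11 in shoots at 3 to 6 h, 16 in shoots at 12 h, and 1 in roots and 13 in shoots at 24 h. Without the 0 h arrays 4 were called in shoots in the first hour and 3 at 24 h.

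Leaving out single arrays gave 4 to 13 calls over time in roots, 16 to 24 in shoots, 14 to 25 for the interaction, 1 to 5 and 2 to 14 in the first hour in roots and shoots, 2 to 8 and 6 to 9 at 3 to 6 h, 0 to 2 and 4 to 14 at 12 h, 0 to 2 and 3 to 11 at 24 h, and 38 for the organs. The 13 over time in roots came without either 0 h shoot array or root replicate 1 at 0.5 h, and the 4 without root replicate 2 at 1 h. The 8 in roots at 3 to 6 h came without root replicate 1 at 0.5 h. The 14 at 12 h and 11 at 24 h in shoots came without shoot replicate 2 at 0 h, the 4 without shoot replicate 2 at 12 h, and the 3 without either 24 h shoot array. With replicate number as a block the counts were 38, 11 over time in roots, 19 in shoots and 20 for the interaction, and no count moved by over 1.5 times. The labels do not say whether these numbers pair the arrays. For the named members 2657 of 2758 values under alternatives kept their side of the threshold and 101 lost it. With group means alone 3 members went with AT4G26010.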
